A study of Mus musculus with 12 samples.

Results

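The genes described here encode the proteins of the cytosolic ribosome. They were chosen by symbol, as every gene of the array's annotation named Rpl or Rps with a number, or Rplp with a number, leaving out pseudogenes and the Rps6k kinases. The rule found 62 genes among the 19494 with a symbol. Of these, 54 are core genes, 21 of the small and 33 of the large subunit, with the stalk genes Rplp0 and Rplp1 counted in the latter. The other 8 are paralogs, whose symbol carries an l after the number (Rpl3l, Rpl7l1, Rpl10l, Rpl22l1, Rpl32l, Rpl39l, Rps4l and Rps27l). Each gene was read by 1 probe set.

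The study asked what loss of NFAT5, a transcription factor known for the response to hypertonic stress, does in blood stem and progenitor cells. Donors were CD45.2 mice of the genotype Nfat5 +/+ Vav-Cre, called wild-type here (WT in the drawings), or Nfat5 fl/fl Vav-Cre, called NFAT5-deficient (KO). Their marrow was given to irradiated CD45.1 mice with intact Nfat5, and donor-derived cells were sorted 13 weeks later. Within lineage-negative, Sca-1-positive, Kit-positive (LSK) cells, the gate CD48- CD150+ gave hematopoietic stem cells (HSC) and the gate CD48+ CD150- gave multipotent progenitors (MPP). Each of the 4 groups had 3 arrays, made from 300 pg of RNA each, named by sample numbers 66, 67 and 75 (wild-type) and 64, 70 and 76 (NFAT5-deficient). Both genotypes carried Vav-Cre, which is active in blood cells and leaves the recipients' marrow stroma wild-type. The labels give no ages and do not say whether the samples came from separate recipients or from pools, so p-values measure the spread between these samples.

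All values are log2 intensities, so a difference of 1 is a doubling of signal. HSC marker genes (Slamf1, Procr, Mecom, Hlf, Tek and Fgd5) averaged 8.81 to 9.40 on HSC arrays and 7.23 to 7.91 on MPP arrays. Procr went the other way in NFAT5-deficient cells, with means of 7.08 in HSC and 7.35 in MPP. The other group means were higher in HSC in each genotype, though Hlf differed little (10.95 against 10.76 in wild-type). MPP markers (Cd48, Flt3, Dntt and Satb1) averaged 5.60 to 6.30 on HSC arrays and 9.95 to 10.70 on MPP arrays. Nfat5 read 9.81, 9.38 and 9.27 on wild-type and 8.76, 8.34 and 7.62 on NFAT5-deficient HSC arrays, without overlap (exact two-sided permutation p = 0.1, which this design cannot go below). On MPP arrays it read 8.78, 8.85 and 8.12 against 7.63, 7.73 and 8.40, and the genotypes overlapped (exact two-sided permutation p = 0.2). Markers of mature neutrophils (9 genes) averaged 6.88, 7.38 and 5.52 on wild-type and 5.42 to 5.53 on NFAT5-deficient HSC arrays. On MPP arrays these markers averaged 6.94, 7.02 and 5.96 in wild-type and 6.49, 6.62 and 6.015 in NFAT5-deficient cells. Their part in the genotype differences given here was not tested.

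Ribosomal proteins bind ribosomal RNA to form the small subunit, which reads the messenger RNA, and the large subunit, which joins amino acids. Their messenger RNAs begin with a C and a run of pyrimidines, the 5′ terminal oligopyrimidine (TOP) motif, through which the kinase mTOR and the RNA-binding protein LARP1 control translation and stability together. HSC are known for a low rate of protein synthesis, and inherited loss of 1 copy of certain ribosomal protein genes causes Diamond-Blackfan anaemia, a failure of red cell production.

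To show what the motif looks like in letters, the starts of 5 core genes that carry it are printed beside 3 paralogs that do not. They are picked examples, since most matched core genes had no such tract at a listed start. RefSeq promoters (build GRCm38.p6) were matched for 49 of the 62 members, 42 core genes and 7 paralogs. Each line gives 15 bases before and 15 bases from the listed start, 5′ to 3′ on the gene's strand. Capitals mark a run of at least 5 pyrimidines that begins with C exactly at that start.
Rps6: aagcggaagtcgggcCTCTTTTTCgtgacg
Rps10: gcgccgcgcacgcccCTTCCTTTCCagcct
Rps21: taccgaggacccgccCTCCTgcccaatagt
Rpl28: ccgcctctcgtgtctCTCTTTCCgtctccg
Rpl35a: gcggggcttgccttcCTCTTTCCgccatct
Rpl22l1: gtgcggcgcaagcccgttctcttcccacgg
Rpl3l: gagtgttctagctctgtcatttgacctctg
Rps27l: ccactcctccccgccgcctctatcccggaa
These windows lie at chr4:86857353-86857382 (minus strand) for Rps6, chr17:27635230-27635259 (minus) for Rps10, chr2:180257364-180257393 (plus) for Rps21, chr7:4792950-4792979 (plus) for Rpl28 and chr16:33056467-33056496 (plus) for Rpl35a. Those of the paralogs lie at chr3:28805493-28805522 for Rpl22l1, chr17:24727811-24727840 for Rpl3l and chr9:66946071-66946100 for Rps27l, all on the plus strand. Such a tract stood at a listed start of 11 of 42 core genes (26.2%), 1 of 7 paralogs (Rpl32l) and 813 of 27025 genes of the table (3.0%). Other starts are listed for Rps21, Rpl35a, Rpl3l and Rps27l, and no tract stood at those. In Rpl22l1 a pyrimidine run led by T lay just after the listed start, so the count depends on where the annotation puts the first base. The letters CGGAAG, a core that ETS-family factors bind, were searched in the full 300-base promoter on both strands. They were found for 28 of 42 core genes (66.7%), 2 of 7 paralogs and 5075 of 27025 genes (18.8%). The other-strand form, CTTCCG, can overlap a pyrimidine tract. These matches are descriptions of letters. No sequence was used here for Rpl3, Rpl7, Rpl8, Rpl17, Rpl21, Rpl29, Rpl32, Rpl36, Rplp1, Rps4l, Rps14, Rps20 and Rps29.

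The core genes were among the brightest on the arrays and lay close together in all 4 groups. Their mean over 54 genes ran from 12.04 to 12.18 across the 12 arrays, a range of 0.14 (1.11-fold). Wild-type HSC arrays 66, 67 and 75 had core means of 12.16, 12.14 and 12.04, and NFAT5-deficient HSC arrays 64, 70 and 76 had 12.14, 12.17 and 12.13. On MPP arrays it was 12.07, 12.18 and 12.11 in wild-type and 12.16, 12.14 and 12.15 in NFAT5-deficient cells. The groups overlapped in every comparison, with means of 12.11 ± 0.063 (wild-type HSC), 12.14 ± 0.023 (NFAT5-deficient HSC), 12.12 ± 0.059 (wild-type MPP) and 12.15 ± 0.012 (NFAT5-deficient MPP; SD, n = 3 each). The 21 small-subunit genes averaged 12.18 ± 0.074, 12.21 ± 0.021, 12.20 ± 0.072 and 12.23 ± 0.013 in the same order. The 33 large-subunit genes averaged 12.07 ± 0.057, 12.10 ± 0.024, 12.07 ± 0.052 and 12.10 ± 0.013. The deposited values had been normalized between arrays, so a level is relative to the other RNAs of a sample, and fewer cells of a type and less RNA per cell cannot be told apart.

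**Figure D1:**
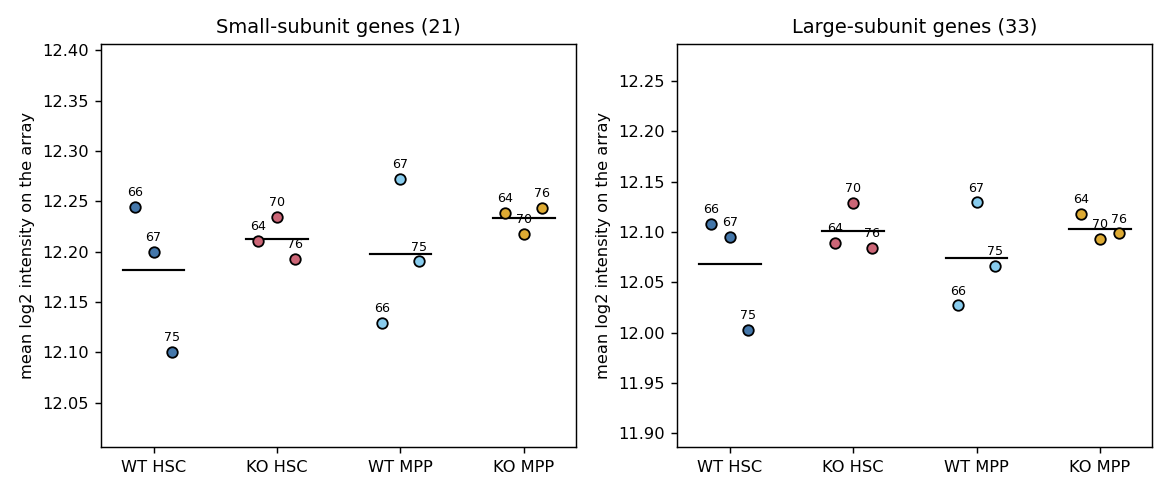
Mean log2 intensity of the 21 small-subunit genes (left) and the 33 large-subunit genes (right) on each array, with sample numbers beside the points and the group mean as a line. Wild-type HSC array 75 is the lowest and wild-type MPP array 67 the highest in both panels, and the groups overlap.

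Within groups, the core genes moved together from array to array by small amounts. On wild-type HSC array 75, 47 of 54 core genes lay below their group mean, and on wild-type MPP array 66, 41 did. On wild-type MPP array 67, 48 lay above it, and on wild-type HSC array 66, 45 did. The mean deviation of the core genes was -0.07 on wild-type HSC array 75, where 367 other genes with a level of at least 11 deviated by 0.00. On wild-type MPP arrays 66 and 67 the core genes deviated by -0.06 and 0.06, and the other bright genes by -0.05 and 0.04. Across the 12 arrays, the deviation of a core gene from its group mean correlated with that of the other core genes at a median Pearson r of 0.67, as a description over arrays that share 1 normalization. The r was above 0 for 51 of 54 genes and at least 0.5 for 36. It was highest for Rps26 (0.97), Rps6 (0.95) and Rps4x (0.94). The exceptions below 0 were Rpl11 (-0.42), Rplp0 (-0.33) and Rplp1 (-0.04).

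**Figure D2:**
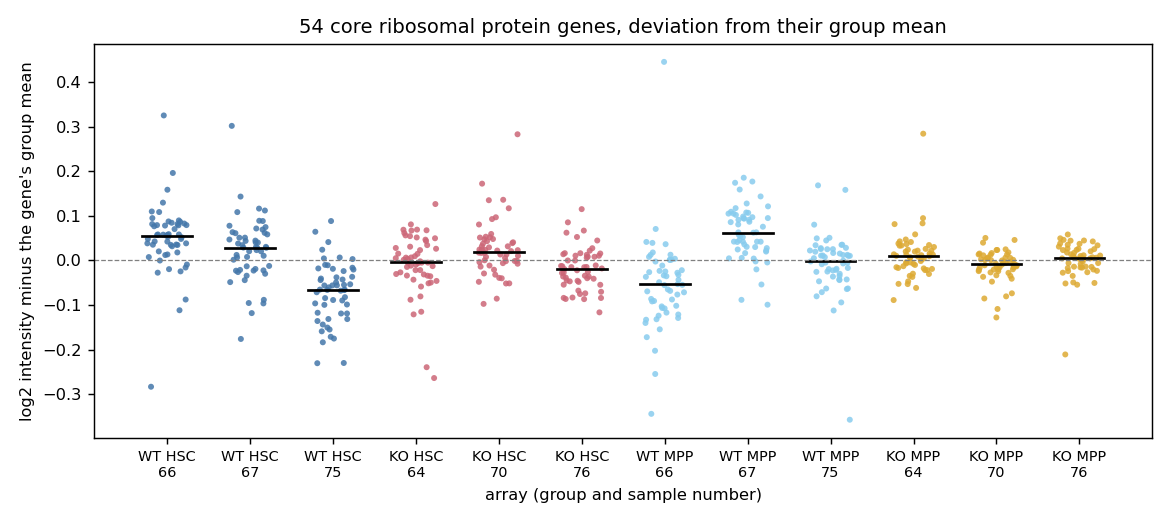
Deviation of each of the 54 core genes (points) from its own group mean, on the log2 scale, for the 12 arrays, with the median of the points as a line. Points lie mostly below 0 on wild-type HSC array 75 and wild-type MPP array 66 and mostly above it on wild-type MPP array 67, and spread less on the NFAT5-deficient MPP arrays.

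For most core genes, replicate arrays of NFAT5-deficient cells lay closer together than those of wild-type cells. In HSC the SD over 3 arrays was larger in wild-type for 39 of 54 core genes (72.2%), with median SDs of 0.078 and 0.047. In MPP it was larger in wild-type for 43 of 54 (79.6%), with medians of 0.077 and 0.031. Among all genes the share was 56.6% in HSC and 58.5% in MPP. Over all genes, replicate pairs of HSC arrays correlated at 0.898 to 0.912 for wild-type, against 0.92 to 0.937 for NFAT5-deficient cells. For MPP the values were 0.924 to 0.935 against 0.948 to 0.952. On the second principal component of all genes, wild-type HSC array 66 (58.12) and NFAT5-deficient HSC array 70 (-42.83) lay farthest out, on opposite sides. The part of these differences in the spread of the core genes was not tested. The core genes of an array moved together and are not independent of each other, and no test was made.

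Of the core genes, 52 of 54 had a level of at least 11, and 39 were among the 100 brightest genes. The median SD within groups was 0.067 for core genes, 0.23 for paralogs and 0.25 for all genes. Core genes ranged from 0.025 (Rps20) to 0.30 (Rplp0). At levels from 12.5 upward, members had a median SD of 0.050 and other genes 0.049. At levels of 11 to 11.5 the medians were 0.089 and 0.21. The highest deposited value of any probe set was 13.28 and the highest core level was 12.93 (Rpl41), so many core genes lay near the top of the scale. How far signal is compressed there was not tested.

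**Figure D3:**
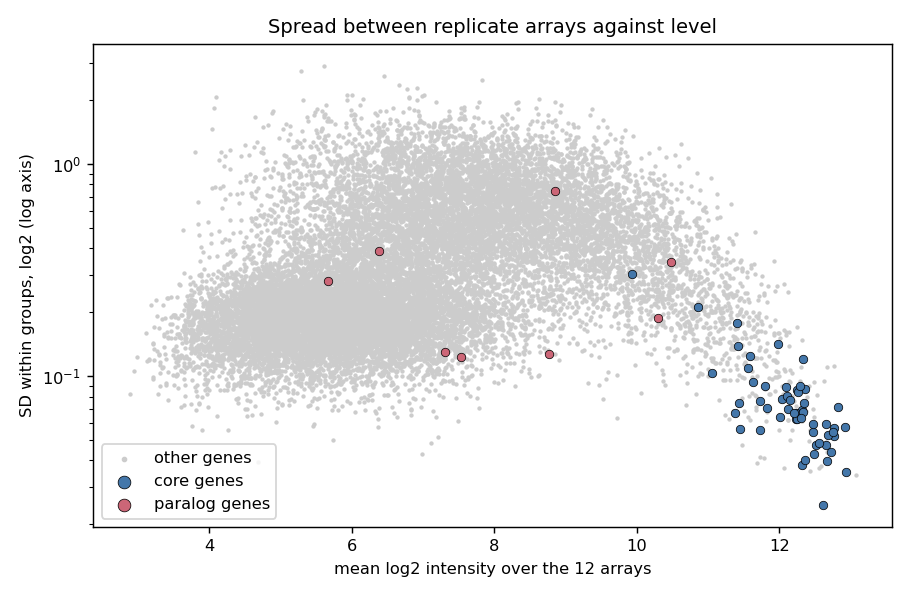
SD within groups (log axis) against mean log2 intensity over the 12 arrays for each gene, with core genes in blue, paralogs in red and all other genes in grey. The core genes sit at the bright, low-spread end, and the paralogs lie among the other genes.

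Between the genotypes of HSC, no difference in a ribosomal protein gene was called. None of the 62 passed limma's test (adjusted p under 0.05 over all genes), and no gene of the array did (0%), although 6.18% of all genes had an unadjusted p under 0.05. The smallest adjusted p of a member was 0.706, and 2 members (3.23%) had an unadjusted p under 0.05. The NFAT5-deficient mean was the higher one for 41 of the 62 and the lower one for 21, with a median difference of 0.03, against -0.05 over all genes. With each array centred on its median, 47 were higher (75.8% against 66.1%), and after quantile normalization 36 (58.1%). Differences of core genes were under 0.1 (1.07-fold) for 48 of 54. The 95% interval lay within 0.5 of 0 (1.41-fold either way, a bound chosen after seeing the data) for 53 of 54 core genes and 30.7% of all genes, and the exception was Rplp0. Differences larger than that bound were therefore outside the interval for those 53 genes.

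The differences in MPP were of similar size. None of the 62 members passed limma's test, where 1 gene of 19494 did (0.00513%). The smallest adjusted p of a member was 0.896, and 3 members (4.84%) had an unadjusted p under 0.05, where 5.35% of all genes did. Of the 62, 38 were higher and 24 lower in NFAT5-deficient MPP, with a median of 0.02 against -0.07 over all genes. With each array centred on its median, 48 were higher (77.4% against 61.3%), and after quantile normalization 33 (53.2%). The difference was under 0.1 for 49 of 54 core genes, and the interval lay within 0.5 of 0 for 53, again all but Rplp0, against 29% of all genes.

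The HSC effect minus the MPP effect (interaction) passed the test for none of the 62 members and for no gene of the array (0%), where 4.19% of all genes had an unadjusted p under 0.05. The smallest adjusted p of a member was 0.9995, and 1 member, Rplp1, had an unadjusted p under 0.05 (1.61% of members). The median was 0.01 against 0.02 over all genes. By count, 34 members were higher (54.8%), against 27 with centred arrays (43.5%) and 36 after quantile normalization (58.1%).

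**Figure D4:**
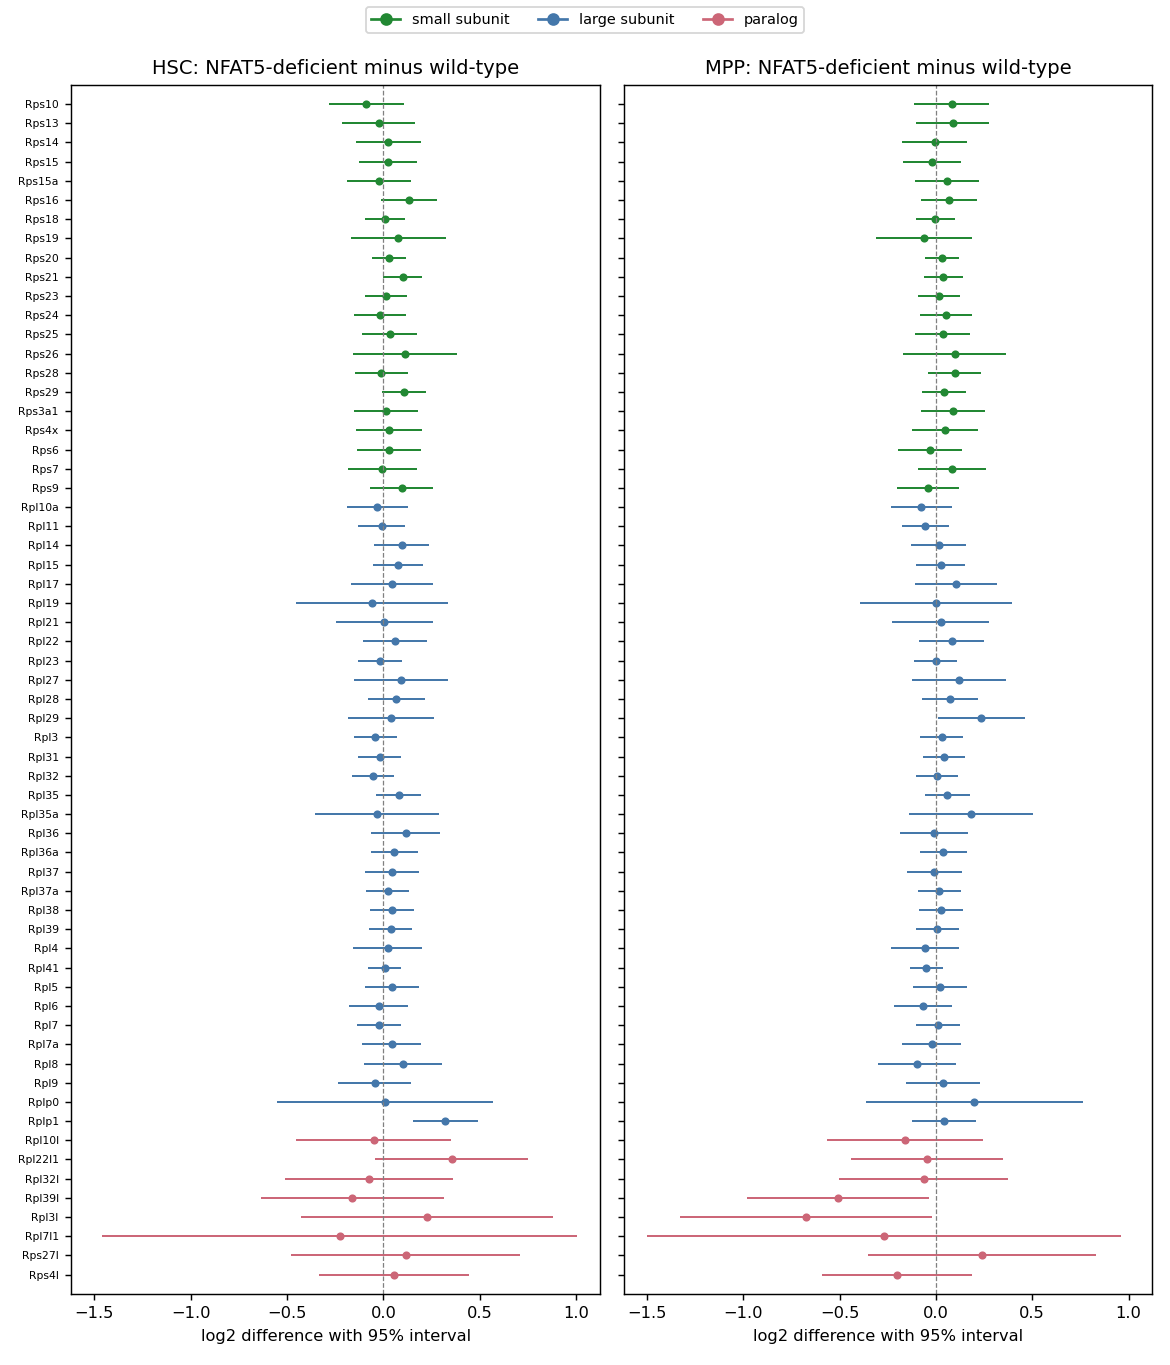
Difference NFAT5-deficient minus wild-type for each of the 62 members in HSC (left) and MPP (right), as log2 difference (points) with its 95% interval from the limma fit (lines). Core genes of both subunits lie near 0 with short lines, Rplp1 in HSC at 0.32 is the core gene farthest from it, and the paralogs have wide lines.

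Rplp1, which with Rplp2 forms the acidic stalk that recruits translation factors to the large subunit, differed most among the core genes. Its probe set, TC0900002450.mm.2, read 11.65, 11.53 and 11.69 on wild-type HSC arrays 66, 67 and 75 and 11.91, 12.06 and 11.86 on NFAT5-deficient HSC arrays 64, 70 and 76. It read 11.84, 11.86 and 11.89 in wild-type and 11.87, 11.92 and 11.92 in NFAT5-deficient MPP. The 3 wild-type HSC arrays were below all 9 others, which overlapped each other. The HSC difference was 0.32 (SE 0.073, 95% interval 0.16 to 0.48), and it did not pass limma's test (adjusted p = 0.706; 0.423 to 0.956 over the alternatives). The MPP difference was 0.04 (-0.12 to 0.20), and the interaction was 0.28 (0.05 to 0.51, adjusted p = 0.9995). Wild-type HSC minus MPP was -0.24 (-0.40 to -0.08, adjusted p = 0.343), and NFAT5-deficient HSC minus MPP was 0.04 (-0.12 to 0.20). Both comparisons with larger values used the same wild-type HSC arrays, so they are not independent.

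The other stalk gene measured, Rplp0, which anchors Rplp1 and Rplp2 to the large subunit, varied most within groups among core genes. It read 9.68, 10.26 and 9.94 on wild-type and 9.73, 10.14 and 10.03 on NFAT5-deficient HSC arrays, and 10.25, 9.72 and 9.45 on wild-type and 10.29, 9.93 and 9.79 on NFAT5-deficient MPP arrays. The genotypes overlapped in both populations. Its HSC difference was 0.01, with an interval of -0.55 to 0.56. Rplp2 was not analysed here.

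Counting members whose 3 arrays of a group all lay on 1 side of the other group's gives the separation by sample. In HSC, 5 of 62 members (Rplp1, Rpl37a, Rps16, Rps21 and the paralog Rpl22l1) were higher in NFAT5-deficient cells without overlap, where 3.55% of all genes were. No member was lower without overlap, where 6.61% of all genes were. In MPP, 3 members (Rpl29, Rps10 and Rps20) were higher without overlap, where 3.8% of all genes were. The 3 that were lower were Rpl41, Rpl39l and Rps4l, where 8.84% of all genes were. Rpl22l1, Rplp1, Rps16 and Rps21 stayed without overlap in HSC under both other scalings, and Rpl37a under neither. In MPP, only Rpl29 (higher) and Rpl39l (lower) did so under both.

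Among small-subunit genes, Rps16, whose protein lies near the decoding centre, read 12.12, 12.15 and 12.05 on wild-type HSC arrays and 12.23, 12.26 and 12.23 on NFAT5-deficient ones. All NFAT5-deficient arrays were above all wild-type ones, by 0.13 on average (-0.01 to 0.27, adjusted p = 0.817). Rps21, a small protein of the solvent side, read 12.64, 12.61 and 12.57 against 12.66, 12.75 and 12.71. These arrays were also apart, though the nearest pair differed by little, and the difference was 0.10 (0.004 to 0.19, adjusted p = 0.792). Rps29, a zinc-binding protein, overlapped, at 12.96, 12.83 and 12.80 against 12.99, 13.01 and 12.92, with a difference of 0.11 (adjusted p = 0.807). Rps10 differed by -0.09 in HSC and 0.08 in MPP. Rps28 differed by -0.01 and 0.10. Neither passed the test.

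Small-subunit genes as a whole had a median difference of 0.03 in HSC (15 of 21 higher) and 0.04 in MPP (15 of 21 higher). Those known for blood disease or signalling, with Rps10, Rps28 and Rps29 given above, did not pass the test either. Rps19, the gene first linked to Diamond-Blackfan anaemia, differed by 0.08 in HSC (-0.16 to 0.32) and -0.06 in MPP (-0.30 to 0.18). Its wild-type HSC arrays read 11.15, 10.94 and 10.78 and overlapped with the NFAT5-deficient ones at 11.03, 10.99 and 11.09. Rps14, lost in the 5q- syndrome, differed by 0.03 in HSC (-0.14 to 0.19) and -0.01 in MPP. Rps6, the protein that S6 kinase phosphorylates, differed by 0.03 (-0.13 to 0.19) and -0.03. Rps24 differed by -0.02 and 0.05. Rps26, which lies by the exit channel of the messenger RNA, differed by 0.11 (-0.15 to 0.38) and 0.10. In Rps19, Rps14, Rps6, Rps24 and Rps26 the arrays of the genotypes overlapped in both populations, while those of Rps10 were apart in MPP.

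The large-subunit genes had a median difference of 0.04 in HSC (22 of 33 higher) and 0.02 in MPP (22 of 33 higher). Of these, Rpl29, a heparin-binding component on the surface, separated by genotype in MPP. It read 11.35, 11.59 and 11.50 on wild-type and 11.75, 11.73 and 11.66 on NFAT5-deficient MPP arrays, all of the latter higher. The difference was 0.24 (0.02 to 0.46, adjusted p = 0.896). In HSC it read 11.60, 11.34 and 11.60 against 11.63, 11.46 and 11.57, which overlapped, with a difference of 0.04. Rpl35a, a Diamond-Blackfan anaemia gene, differed by 0.18 in MPP (-0.13 to 0.50). That value rested on wild-type MPP array 66, which read 10.97 against 11.50 and 11.47 on the other wild-type arrays, and without that array it was 0.01. Rpl5 and Rpl11, which with 5S RNA hold back Mdm2 when ribosome assembly fails, differed by 0.05 and -0.01 in HSC and by 0.02 and -0.06 in MPP. Rpl3, at the peptidyl transferase centre, differed by -0.04 and 0.03, and Rpl32 by -0.05 and 0.01. Rpl41, the shortest ribosomal protein, differed by 0.01 in HSC and by -0.05 in MPP, where its arrays read 12.97, 12.96 and 12.93 in wild-type and 12.86, 12.93 and 12.93 in NFAT5-deficient cells.

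**Figure D5:**
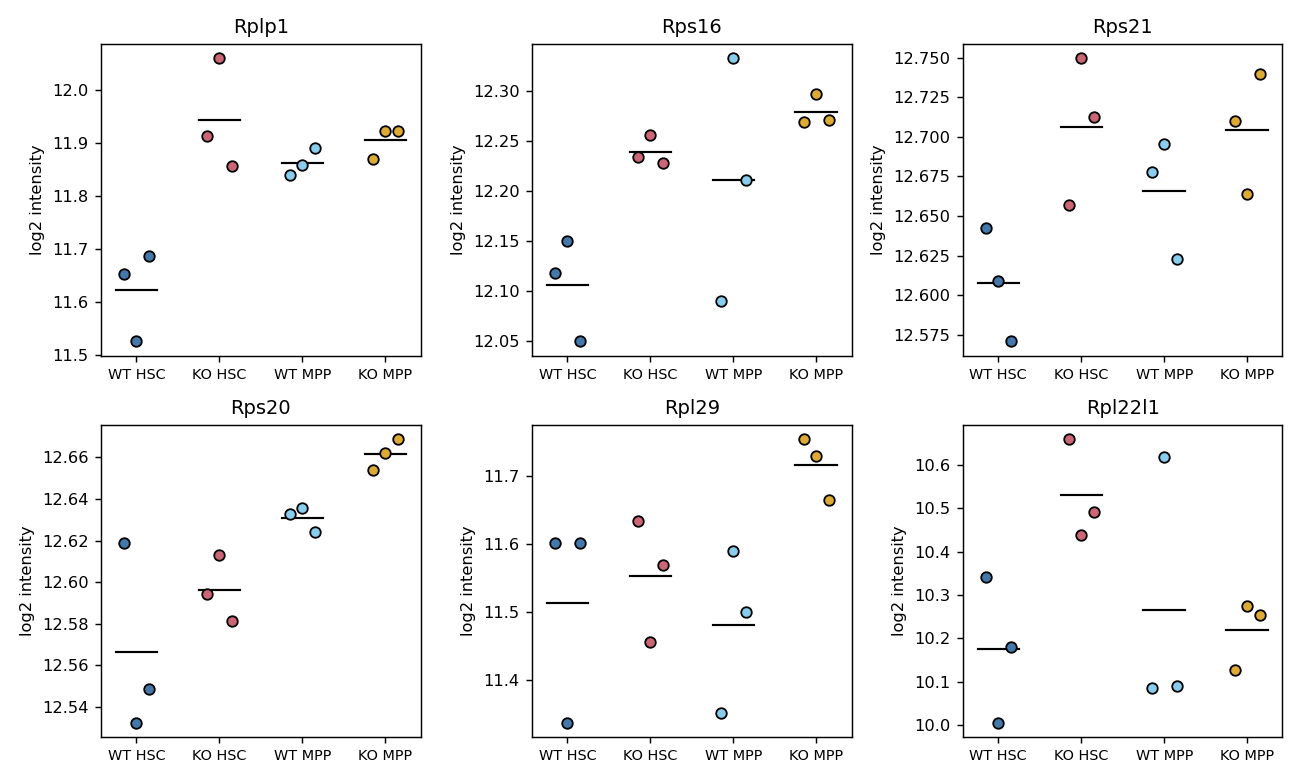
Log2 intensity of 6 members on each array (points) with group means (lines), each panel on its own scale. Rplp1 is lowest on the 3 wild-type HSC arrays, Rps20 is highest on the NFAT5-deficient MPP arrays, and 1 wild-type MPP array of Rpl22l1 stands far above the other 2.

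HSC and MPP, which differ in the share of cycling cells, differed little in ribosomal protein signal. None of the 62 members passed limma's test between HSC and MPP in wild-type cells, where 32 genes did (0.164%), or in NFAT5-deficient cells, where 41 genes did (0.21%). The smallest adjusted p of a member was 0.343 (Rplp1) and 0.587 (Rps4l), and 2 and 1 members (3.23% and 1.61%) had an unadjusted p under 0.05, where 8.9% and 7.9% of all genes did. The median HSC minus MPP difference was -0.02 in wild-type, where all genes had 0.05, and 0.00 in NFAT5-deficient cells, where all genes had 0.07. In wild-type, 25 of 62 members were higher in HSC (40.3%), against 17 with centred arrays (27.4%) and 33 after quantile normalization (53.2%). In NFAT5-deficient cells 30 were higher (48.4%), against 7 with centred arrays (11.3%) and 41 after quantile normalization (66.1%). The direction of the whole group thus turned with the scaling, and the largest of these medians was -0.07. Intervals lay within 0.5 of 0 for 53 of 54 core genes in each genotype, against 29.9% and 28.4% of all genes. A list of 7 proliferation genes averaged 9.17 to 9.69 on HSC and 9.79 to 10.19 on MPP arrays, and its part in these values was not tested.

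By sample, 1 member (Rps10) was higher in wild-type HSC than MPP without overlap, where 7.54% of all genes were, and 3 (Rpl10a, Rplp1 and Rps20) were lower, where 4.74% were. In NFAT5-deficient cells, 5 members (Rpl36, Rpl37a and the paralogs Rpl10l, Rpl22l1 and Rps4l) were higher, where 11.5% of all genes were. There, 8 (Rpl9, Rpl27, Rpl28, Rpl29, Rps4x, Rps16, Rps20 and Rps25) were lower, where 5.39% were. With centred arrays, 3 were higher and 16 lower in NFAT5-deficient cells, where 7.2% and 7.59% of all genes were. After quantile normalization 7 were higher and 4 lower, where 8.48% and 6.04% of all genes were.

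Rps20, a small-subunit protein of the head, was the member lower in HSC without overlap in both genotypes. Its probe set, TC0400002129.mm.2, read 12.62, 12.53 and 12.55 in wild-type and 12.59, 12.61 and 12.58 in NFAT5-deficient HSC. In MPP it read 12.63, 12.64 and 12.62 in wild-type and 12.65, 12.66 and 12.67 in NFAT5-deficient cells. The HSC minus MPP difference was -0.06 in wild-type (-0.15 to 0.02, adjusted p = 0.688) and -0.07 in NFAT5-deficient cells (-0.15 to 0.02, adjusted p = 0.703). In wild-type the nearest arrays read 12.619 and 12.624, and with centred arrays they overlapped. Rps10 was higher in wild-type HSC, at 11.58, 11.48 and 11.45 against 11.36, 11.40 and 11.32 in MPP, by 0.14 (-0.05 to 0.33, adjusted p = 0.692). Rpl10a read 11.71, 11.71 and 11.68 in wild-type HSC against 11.76, 11.81 and 11.86 in MPP, and differed by -0.11. Rps28 and Rps19 overlapped and differed by 0.11 and -0.20. In NFAT5-deficient cells Rpl8 differed by 0.13, Rpl9 by -0.11 and Rpl29 by -0.16.

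The paralogs spread more than the core genes. Their group means ran from 5.41 to 10.72. No detection calls were used, and some genes of other tissues read as high as the dimmer paralogs, such as Alb of liver at 6.36 and Aqp2 of kidney at 7.18, both chosen after their values were seen. Whether Rpl39l, Rpl3l, Rps4l and Rpl10l were above background was therefore not tested, and their differences are given with that limit. Intervals lay within 0.5 of 0 for 2 of 8 paralogs in HSC and for 2 of 8 in MPP, so their precision was lower. In MPP, 7 of the 8 were lower in NFAT5-deficient cells, with a median of -0.18, and none passed the test. Of all genes, 11911 of 19494 were lower there, with a median of -0.07.

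Rpl22l1, the paralog of Rpl22 that can take its place in the large subunit, read 10.34, 10.01 and 10.18 on wild-type and 10.66, 10.44 and 10.49 on NFAT5-deficient HSC arrays (probe set TC0300000182.mm.2). The genotypes were apart in HSC, by 0.35 (-0.04 to 0.75, adjusted p = 0.829). In MPP it read 10.09, 10.62 and 10.09 in wild-type and 10.13, 10.27 and 10.25 in NFAT5-deficient cells, where wild-type array 67 was the highest and the groups overlapped. The MPP difference was -0.05 and the interaction 0.40 (-0.15 to 0.95, adjusted p = 0.9995), or 0.22 without wild-type MPP array 67. NFAT5-deficient HSC were above NFAT5-deficient MPP by 0.31 (-0.08 to 0.70, adjusted p = 0.701). Rpl22 itself differed by 0.06 in HSC and 0.08 in MPP.

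Rpl3l, the muscle form of Rpl3, read 6.52, 5.81 and 6.08 on wild-type and 6.39, 6.41 and 6.29 on NFAT5-deficient HSC arrays. In MPP it read 6.37, 7.59 and 6.57 in wild-type and 6.39, 5.94 and 6.17 in NFAT5-deficient cells. Wild-type MPP array 67 stood above all others, and the MPP difference of -0.67 became -0.30 without it. The wild-type HSC minus MPP difference of -0.71 became -0.34, and the interaction of 0.90 became 0.53. Rpl39l, the germ-line form of Rpl39, read 6.50, 5.53 and 5.72 in wild-type and 5.34, 5.42 and 5.45 in NFAT5-deficient MPP, which were apart. Its difference of -0.51 (adjusted p = 0.896) became -0.22 without wild-type array 66. Rpl39 differed by 0.04 in HSC and 0.01 in MPP.

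Rpl7l1, a pre-ribosome assembly protein related to Rpl7, had the largest spread of all members (SD within groups 0.745). It ran from 7.62 to 9.98 over the wild-type MPP arrays alone, and its HSC difference of -0.23 had an interval of -1.45 to 1.0. Rpl7 differed by -0.02 in HSC. Rps27l, a target of p53 related to Rps27, read 10.63, 10.26 and 10.03 on wild-type and 10.10, 10.43 and 10.74 on NFAT5-deficient HSC arrays. It overlapped between genotypes and differed by 0.12 in HSC and 0.24 in MPP. Rps4l read 7.29, 7.17 and 7.32 in wild-type and 6.87, 7.15 and 7.16 in NFAT5-deficient MPP, which were apart, by -0.20 (adjusted p = 0.899). It was higher in NFAT5-deficient HSC, at 7.37, 7.50 and 7.56, than in NFAT5-deficient MPP, by 0.42 (0.04 to 0.80, adjusted p = 0.587). Rps4x, its partner, differed by -0.04 in that comparison. Rpl10l, a testis form of Rpl10, differed by -0.05 in HSC and -0.16 in MPP, and Rpl32l by -0.08 and -0.06. Rps27 and Rpl10 were not analysed here.

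Genes that build, load and regulate ribosomes also gave no called gene. In lists of 10 kinds, 0 genes passed limma's test in any of the 5 comparisons. Counts by direction in these lists are given for the deposited scaling only. Of all genes, 41.6% were higher in NFAT5-deficient HSC and 38.9% in NFAT5-deficient MPP. Of 89 ribosome biogenesis factors, 49 were higher in NFAT5-deficient HSC (median 0.03, against -0.05 over all genes) and 54 in NFAT5-deficient MPP (median 0.04, against -0.07). An unadjusted p under 0.05 was found for 8 of the 89 in HSC and 5 in MPP, where 6.18% and 5.35% of all genes had one. The 2 with the smallest p in HSC were Tsr1, which acts late in small-subunit assembly, at 1.39 (SE 0.43, adjusted p = 0.779), and Mak16, a large-subunit factor, at 0.98 (SE 0.32, adjusted p = 0.779). In MPP they were Sdad1 at 1.34 and Ddx51 at -0.54 (adjusted p = 0.896 for both). Between wild-type HSC and MPP they were Sbds, the Shwachman-Diamond gene that frees the large subunit for use, at 1.17 (SE 0.32, adjusted p = 0.296), and Utp15 at -0.93. Of 35 subunits and factors of RNA polymerases I and III, 19 were higher in NFAT5-deficient cells of each population, with medians of 0.07 and 0.06. Crcp, a polymerase III subunit, differed by 1.86 between genotypes in MPP (SE 0.49, adjusted p = 0.802), the smallest p of that list there.

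Among 30 translation initiation factors, 20 were lower in wild-type HSC than MPP (median -0.10) and 25 in NFAT5-deficient HSC than MPP (median -0.11). Over all genes these medians were 0.05 and 0.07, and 58.6% and 62.1% of all genes were higher in HSC. Eif4a1, the helicase that unwinds messenger RNA for the ribosome, had means of 10.81 in wild-type HSC, 10.23 in NFAT5-deficient HSC, 10.77 in wild-type MPP and 11.17 in NFAT5-deficient MPP. Its NFAT5-deficient HSC minus MPP difference was -0.94 (SE 0.17, adjusted p = 0.0727), its HSC genotype difference -0.58 (adjusted p = 0.772), and its interaction -0.98 (SE 0.24, adjusted p = 0.9995). Of 13 elongation factors, 10 were lower in HSC than MPP in each genotype (medians -0.15 and -0.09). Eef1g, a subunit of the factor that recharges EF1A, differed by -0.39 between NFAT5-deficient HSC and MPP (SE 0.13, adjusted p = 0.463). Eef2, the translocase, differed by 0.39 between genotypes in HSC (adjusted p = 0.817).

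Of 22 other genes whose messenger RNAs carry a TOP motif, 16 were higher in NFAT5-deficient HSC (median 0.04) and 17 in NFAT5-deficient MPP (median 0.05). Eif3e, an initiation factor subunit, differed by -0.35 between wild-type HSC and MPP (SE 0.12, adjusted p = 0.386), and Nap1l1 by -0.13. In the list of mTOR, S6 kinase and LARP1 genes (22), Larp1b differed by 1.61 between genotypes in HSC (SE 0.45, adjusted p = 0.772), from 6.86 to 8.46, and its interaction was 1.91 (SE 0.63, adjusted p = 0.9995). Pdcd4, an inhibitor of Eif4a1, was higher in HSC than MPP by 0.47 in wild-type (adjusted p = 0.298) and by 0.55 in NFAT5-deficient cells (adjusted p = 0.254). Of 20 chaperones and importers of ribosomal proteins, 13 were higher in NFAT5-deficient HSC, where Tnpo1, an importin, differed by 0.61 (adjusted p = 0.866). Of 12 quality control genes, 6 were higher in NFAT5-deficient HSC and 9 in NFAT5-deficient MPP, and Gigyf2, a translational repressor at stalled ribosomes, differed by -0.46 in HSC (adjusted p = 0.815). Of 15 Diamond-Blackfan anaemia genes, all members, 7 were higher in NFAT5-deficient HSC (median -0.005) and 13 in NFAT5-deficient MPP (median 0.06). The list of 6 genes for the p53 arm held Rpl5, Rpl11 and Rps27l themselves. In it, Cdkn1a, a cell cycle inhibitor, differed by -1.36 between wild-type HSC and MPP (SE 0.36, adjusted p = 0.274).

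Outside the members, the gene whose values followed the core mean most closely over the 12 arrays was Rpl31-ps12, a processed pseudogene of Rpl31 (Pearson r 0.96). Cox17 (0.92), Lsm5 (0.90), Alg11 (0.88) and Larp4b (0.87) came next. These r values describe 12 arrays that share a normalization. Many ribosomal protein genes have near-identical processed pseudogenes, and signal from such copies cannot be separated from that of the gene where probes match both.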

How the data were processed

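Values were the deposited log2 intensities of 12 arrays (22142 probe sets, 2.51 to 13.28), made by the authors with RMA and limma, per the submitters' processing notes, with no versions given. Scanner files, detection calls and the annotation's build were not used here. Of the probe sets, 19527 had 1 gene symbol and 2615 had none. For 33 genes with several, the brightest stood for the gene, which left 19494. No filter or new normalization was applied. All genes were fitted together with limma 3.58.1 in R 4.3.3, with a mean per group, an intensity-dependent variance prior and Benjamini-Hochberg adjustment over all genes of a comparison. The fit was tested on simulated data, in which random genes received changes larger than any core gene showed. Residuals were shuffled within each gene. Differences as small as those of the core genes, and genes that move together, were therefore not covered. Precision is limited by the number of arrays.

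The members, lists and rules were chosen with earlier results of these data known. Named genes were drawn from, per comparison, the 3 members with the smallest unadjusted p in each direction, all paralogs with their partners, the 3 members of largest spread, 8 members with roles in blood disease or signalling, per list the 2 genes of smallest p, and the 5 genes most like the core mean. Members without overlap between groups were named after their values were seen. Marker lists for erythroid, megakaryocytic, B, T and monocytic cells were also read. The alternatives were centring, quantile normalization, array weights, a level of at least 6, the mean of probe sets, other variance priors, fits of only the groups compared, a threshold of 0.1, the sample number as a block, 2 other memberships, and leaving out arrays. Promoters came from RefSeq. Drawings used Python 3.11.15 and matplotlib 3.10.9.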

Additional observations from a re-analysis of the deposited data

How the results depend on the processing

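No member passed limma's test in any of the 5 comparisons under any alternative run, including a threshold of 0.1 and the fit without wild-type HSC array 66 and NFAT5-deficient HSC array 70, which was added after seeing the data. Of the counts and medians recomputed, 3 moved by more than the spread between arrays or by over 1.5 times, and 238 moved by less; the cause was not tested. The median of NFAT5-deficient HSC minus MPP was -0.066 with centred arrays (-0.003 as deposited). Centring also took the MPP genotype median from 0.02 to 0.07, wild-type HSC minus MPP from -0.02 to -0.06 and the interaction from 0.01 to -0.01. Quantile normalization turned both HSC minus MPP medians, to 0.007 (wild-type) and 0.01 (NFAT5-deficient). After quantile normalization, 11 members did not overlap between genotypes in MPP (6 as deposited). Of these, 4 were higher and 7 lower in NFAT5-deficient MPP, where 4.33% and 6.82% of all genes were. Between wild-type HSC and MPP, 7 did not overlap (4 as deposited). Of those, 4 were higher and 3 lower in HSC, where 6.39% and 5.22% of all genes were. Leaving out 1 array at a time gave medians of -0.01 to 0.06 for the HSC genotype difference, -0.01 to 0.05 in MPP, -0.01 to 0.04 for the interaction, -0.04 to 0.02 for wild-type HSC minus MPP and -0.02 to 0.01 for NFAT5-deficient HSC minus MPP. The sign of each median changed with single arrays. It turned without wild-type HSC array 75 for the HSC genotype difference, and without wild-type MPP array 66 for the MPP one. It turned without wild-type HSC array 75 or wild-type MPP array 67 for wild-type HSC minus MPP, and without NFAT5-deficient HSC array 76 or MPP array 64 for NFAT5-deficient HSC minus MPP. For the interaction it turned without either of those wild-type arrays 75 and 67, or without NFAT5-deficient array 70 of HSC or of MPP.

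Sample numbers are shared by HSC and MPP. Deviations of same-numbered arrays correlated at -0.01 to 0.06 over all genes, so this measure did not show the numbers to pair the arrays. Over the core genes these correlations ran from -0.47 (sample 66) to 0.06 (sample 67), and all but that of sample 67 were negative. The neutrophil marker mean was lowest on array 75 in both wild-type populations (5.52 in HSC, 5.96 in MPP). In NFAT5-deficient cells it was lowest on array 64 in HSC (5.42) and on array 76 in MPP (6.015). Whether same-numbered arrays share a source was not tested. With the replicate block, 0 members passed in each comparison, the interaction of Rplp1 stayed at 0.28 and the median interaction at 0.01. For the 3 members of smallest unadjusted p per direction and comparison (30 values as deposited), 0 of 683 values under alternatives changed sign. These were picked by small p, which favours a stable sign, and the other named members were not counted. Differences smaller than a gene's interval, with a median half-width of 0.158 for members between 2 groups, were not detectable with 3 arrays per group. Larger ones could also be missed, since the intervals are not adjusted for the number of genes. Rplp1 in HSC, at 0.32 with a half-width of 0.162, did not pass limma's test (adjusted p = 0.706).

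Marker lists of other cells had these means per array: T cell genes (3 measured) averaged 4.90 to 5.38, monocyte genes 5.48 to 6.90, B cell genes 6.13 to 6.74 and erythroid genes 6.41 to 7.33. Megakaryocyte genes averaged 8.34 to 8.89 on HSC and 7.37 to 7.93 on MPP arrays.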
